A study of Homo sapiens with 12 samples.

Results

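The genes described here are 57 parts of the machinery that brings new secretory and membrane proteins into the endoplasmic reticulum (ER), attaches N-linked glycans to them and carries them between the ER and the Golgi. They were taken by gene symbol from a list of subunits that was chosen with earlier results of these data known. The shares given below therefore describe these genes and do not test a list fixed in advance. Of the 57 genes, 54 had a probe set that the platform annotation gives to 1 gene symbol, and all 54 passed the filter on low signal and were tested among 10265 genes. SEC61G and KDELR2 matched no named probe set and TMED7 matched only probe sets with several symbols, so these 3 were not analysed here. Where a gene had several probe sets, the one with the highest mean over the 12 arrays stood for it.

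Messenger RNA was measured on 12 Affymetrix arrays of LNCaP, an androgen-sensitive human prostate adenocarcinoma line. Cells of all 4 groups were kept without androgen for 48 h and transfected, and 42 h after transfection received 5 nM R1881, a synthetic androgen, or its ethanol vehicle for 48 h. The groups held 3 arrays each and were control siRNA with vehicle, control siRNA with R1881, SRF siRNA with vehicle and SRF siRNA with R1881, where SRF is serum response factor, a transcription factor best known for actin and cytoskeletal genes. Biological replicates is what the labels call the 3 arrays of a group, with no word on separate cultures. The p-values therefore cover only the variation seen among these arrays, part of which may be technical, and the number of arrays limits the precision.

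A protein bound for secretion is recognised by the signal recognition particle as its signal peptide leaves the ribosome, is threaded through the SEC61 channel, loses the signal peptide to signal peptidase and receives a preassembled sugar tree from oligosaccharyltransferase. COPII coats then bud vesicles from ER exit sites, with cargo receptors choosing what enters, and COPI coats bring escaped ER proteins back, with KDEL receptors holding the soluble ones. The luminal cells of the prostate are a secretory epithelium, and androgen maintains that secretory state.

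The label of each group was checked on SRF and on KLK3, the gene of prostate-specific antigen and a textbook androgen target. SRF fell by 1.34 ± 0.14 on the log2 scale after its siRNA in vehicle (± SE, limma with Benjamini-Hochberg adjustment over all genes tested, adjusted p = 7.98e-06) and by 1.44 ± 0.14 in R1881, and KLK3 rose by 3.26 ± 0.06 with R1881 under control siRNA and by 3.54 ± 0.06 under SRF siRNA. Arrays of one group correlated at 0.993 to 0.996 over the genes tested and arrays of different groups at 0.879 to 0.960, and no array stood apart from its group. The 6 luminal markers that could be named were above a log2 signal of 4, the filter used throughout, on all 12 arrays. Their summed linear signal was 15189 to 16317 in control siRNA with vehicle and 64225 to 64802 with R1881. Under SRF siRNA it was 12569 to 12968 with vehicle and 38842 to 39655 with R1881. With R1881 under control siRNA 4 of the 6 rose and 2 fell (66.7% and 33.3%, against 26.9% and 33.8% of all genes tested). Of the 15 markers of basal or mesenchymal lines, fibroblasts and leukocytes that could be named, 11 were below it on every array, among them KRT5, CDH2, DCN, PTPRC and CD14. VIM and COL1A1 were above it on 12 arrays, COL3A1 on 7 and LYZ on 1. The summed linear signal of the 5 basal or mesenchymal markers was 130 to 140 in control siRNA with vehicle and 103 to 109 with R1881, against 229 to 248 and 296 to 370 under SRF siRNA. That of the 6 fibroblast markers was 150.2 to 184 and 92.2 to 113 under control siRNA, against 279 to 338 and 86.1 to 103 under SRF siRNA, and the 4 leukocyte markers summed to 28.4 to 42.6 in SRF siRNA with R1881 and to 22.8 to 24.8 in the other groups. GAPDH has control probe sets at both ends of its transcript, and their gap (3-prime minus 5-prime, log2), a sign of RNA integrity, was 0.14 ± 0.09 (SD, n = 3) in control siRNA with vehicle, 0.46 ± 0.02 with R1881, 0.36 ± 0.04 in SRF siRNA with vehicle and 0.49 ± 0.14 with R1881. These markers and this gap moved with the groups, and their part in the results below was not tested beyond a fit with the GAPDH gap as a covariate.

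With control siRNA, R1881 raised most of the secretory pathway genes. Of the 54 genes tested 48 rose, from the channel subunits to the COPI coat, against 26.9% of all genes tested, and 2 fell, SEC11A and SRP9, against 33.8%. The median change of the 54 was 0.74 on the log2 scale, while that of all genes tested was -0.05. At least 2-fold rises were seen for 19 of the 54, against 7.08% of all genes tested. Groups did not overlap, with every R1881 array above every vehicle array, for 50 of the 54, against 30.3% of all genes tested. These are strongly expressed genes, so the same was counted over the 4636 genes with a mean log2 signal of at least 8: of the 51 listed genes among them 45 rose and 2 fell, against 33% and 35.5% of those 4636. In RNA from whole cultures, fewer cells of a type and less RNA per cell cannot be told apart.

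Under SRF siRNA the same treatment moved fewer of these genes and by less. R1881 raised 31 of the 54, against 25.5% of all genes tested, and lowered 4, SRP9, SPCS1, SEC11A and DDOST, against 27.7%. The median change was 0.25, that of all genes tested was -0.03, and 3 genes rose at least 2-fold, against 5.56%. The difference between the responses was tested directly as SRF siRNA minus control siRNA. It passed the test for 36 of the 54 genes, all of them with the smaller value under SRF siRNA, against 10.5% of all genes tested in that direction. No gene of the 54 passed in the other direction, where 13.2% of all genes tested did, and at an unadjusted p under 0.05 in limma the counts were 0 and 42. Averaging all passing probe sets of a gene gave 1 such gene, SPCS3. The median difference was -0.44 against 0.03 for all genes tested, and the value was below 0 for 50 of the 54. Among the 51 strongly expressed genes 35 had the smaller response under SRF siRNA, against 12.4% of all strongly expressed genes. With the GAPDH gap as a covariate 26 of the 36 calls were kept, and those lost were COPB2, COPG1, COPZ1, DAD1, LMAN1, LMAN2, SEC24C, SRPRB, STT3B and TMED2. The same covariate kept 42 of the 50 calls for R1881 under control siRNA, losing COPB1, COPG2, DDOST, KDELR1, SEC62, SPCS2, SRP9 and STT3B, and 28 of the 35 under SRF siRNA, losing COPZ1, KDELR1, MCFD2, SAR1A, SEC13, SRP9 and STT3A. After quantile normalization the calls lost were DDOST, KDELR1 and SEC62 under control siRNA, SRP9 and SRP54 under SRF siRNA, and DAD1 and TMED10 for the difference.

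**Figure D1:**
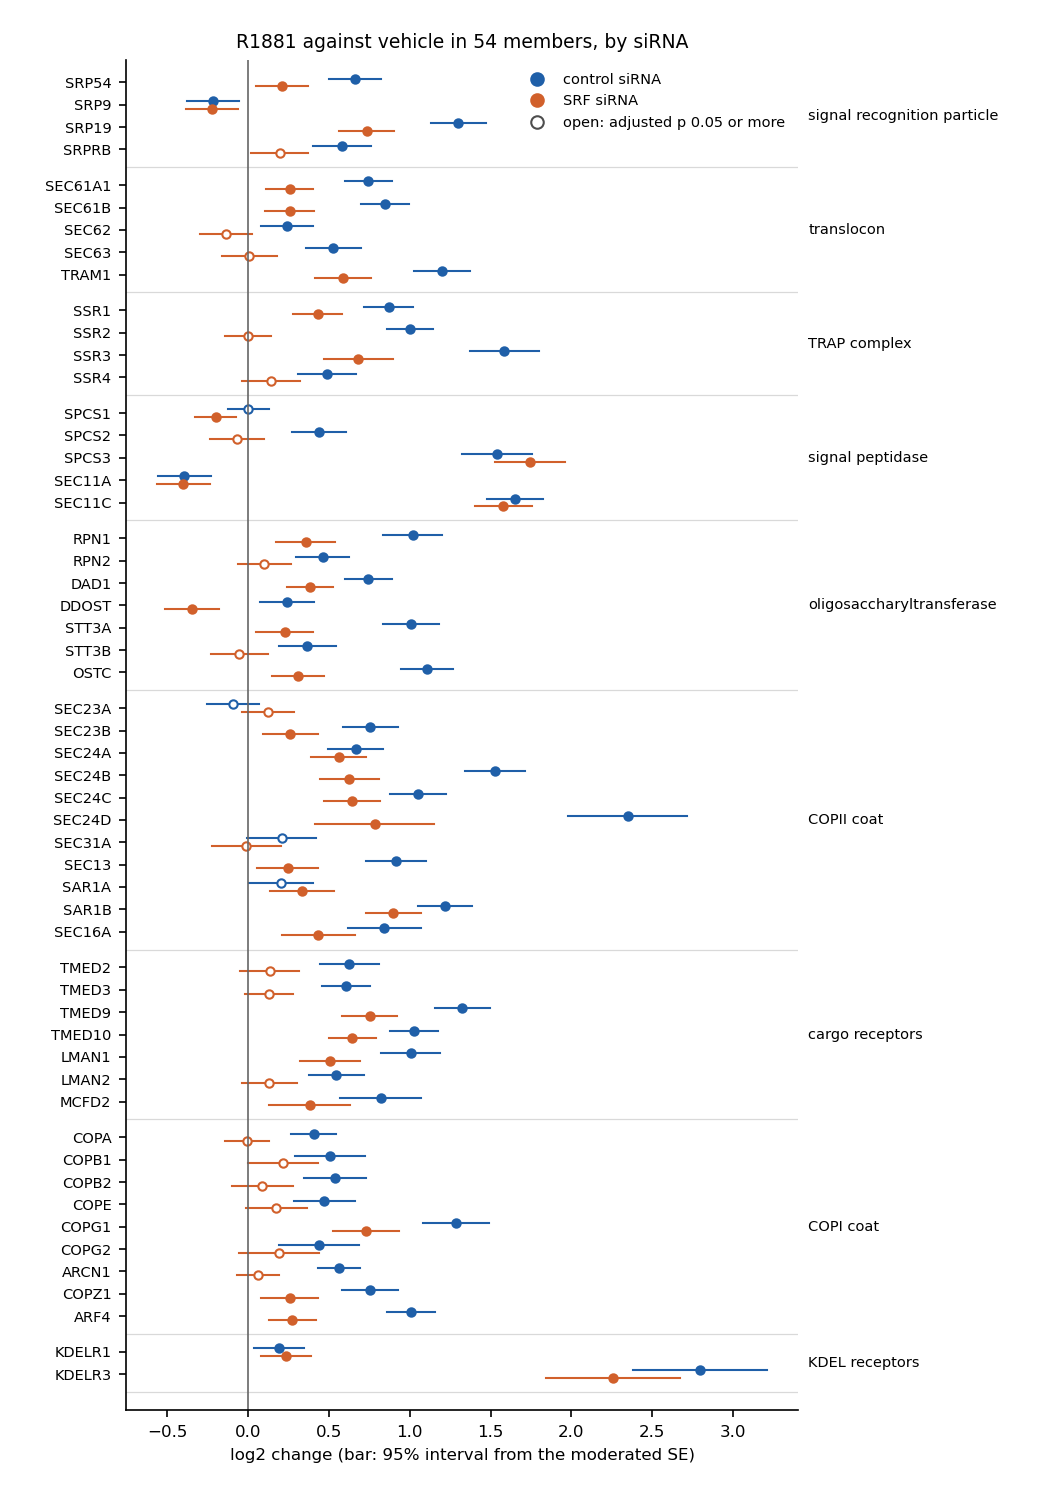
Log2 change with R1881 against vehicle for each of the 54 genes (horizontal axis), grouped by role, under control siRNA (blue) and SRF siRNA (orange); bars are 95% intervals from the moderated SE and open points did not pass the adjusted p of 0.05. Blue points lie right of 0 for 51 genes, and the orange point lies left of the blue one for 50 of the 54.

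**Figure D2:**
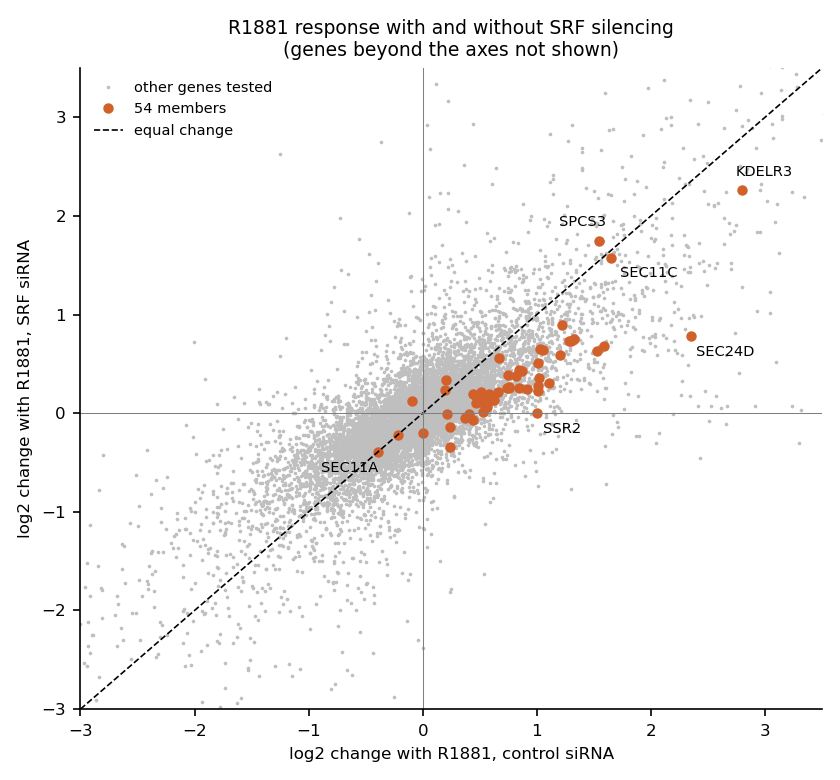
Log2 change with R1881 under SRF siRNA (vertical axis) against that under control siRNA (horizontal axis) for the 54 genes (orange) and the other genes tested (grey), with the line of equal change dashed. Most orange points lie to the right of 0 and below the dashed line, with SPCS3 and SEC11C near it, KDELR3 at the far right and SSR2 close to 0 on the vertical axis.

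The responses under the 2 siRNAs share no array. Over these 54 genes they had a correlation of 0.849 (Pearson) and a rank correlation of 0.864 (Spearman), given as a description. In all, 30 genes rose with R1881 under both siRNAs and 17 rose under control siRNA and did not pass the test under SRF siRNA. The 17 are ARCN1, COPA, COPB1, COPB2, COPE, COPG2, LMAN2, RPN2, SEC62, SEC63, SPCS2, SRPRB, SSR2, SSR4, STT3B, TMED2 and TMED3. Among them COPB1, COPE, COPG2 and SSR4 did not pass the direct test of the difference. For these genes a smaller response under SRF siRNA is therefore not shown by the split. The joint counts in this paragraph were not made over all genes tested. DDOST was the 1 gene that rose under control siRNA and fell under SRF siRNA, a fall that its other probe set did not pass.

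The promoters of these genes were read because many of the genes moved together with R1881. RefSeq promoter windows on GRCh38.p14, from 250 bases before to 50 after the annotated start, matched 49 of the 57 genes by symbol. The unmatched ones are ARF4, KDELR2, RPN1, SEC24D, SPCS1, STT3B, TMED9 and TRAM1. The core of the unfolded protein response element, TGACGTGG on either strand, is the motif bound by the stress factors XBP1 and ATF6. It stood in 9 of the 49 windows, or 18.4%, against 0.795% of the windows of all 27305 symbols. Of 35116 windows, only the first listed one of each symbol was read. The 27305 symbols were not limited to the 10265 genes tested. Their windows were not matched to those of the 49 in expression or base content, so the shares describe an unmatched comparison. The 10 matches are printed below, 30 bases each on the strand of the gene, since they set the genes with this core beside their responses. Capitals mark TGACGTGG or its reverse complement CCACGTCA.
COPA, chr1:160343227-160343256, minus strand: gagagggtcgcTGACGTGGaggcgtccgaa
COPB1, chr11:14499841-14499870, minus strand: cccacccccttCCACGTCAgccaaggactc
COPB2, chr3:139389825-139389854, minus strand: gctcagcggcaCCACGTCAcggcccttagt
COPB2, chr3:139389632-139389661, minus strand: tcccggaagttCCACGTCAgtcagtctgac
KDELR3, chr22:38468039-38468068, plus strand: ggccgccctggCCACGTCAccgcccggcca
SEC16A, chr9:136484707-136484736, minus strand: tggccctggtgCCACGTCAgccggactgaa
SEC23A, chr14:39103221-39103250, minus strand: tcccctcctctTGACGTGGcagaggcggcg
SEC24A, chr5:134648595-134648624, plus strand: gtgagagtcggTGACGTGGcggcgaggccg
SEC62, chr3:169966779-169966808, plus strand: ccctcctcgctCCACGTCAgagggaaccgg
SRP19, chr5:112861164-112861193, plus strand: aagtcttcatgCCACGTCAgagactagaga

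The core began from 179 bases before the start, in SEC24A, to 30 after it, in COPB2. Responses of the 9 genes that carry it ran from -0.09 to 2.80 under control siRNA, where those of all 54 ran from -0.39 to 2.80. Under control siRNA R1881 changed KDELR3 by 2.80, SRP19 by 1.30, SEC16A by 0.84, SEC24A by 0.66, COPB2 by 0.54, COPB1 by 0.51, COPA by 0.41 and SEC62 by 0.24, and SEC23A did not pass the test at -0.09. The longer ER stress element, CCAAT and CCACG with 9 bases between them, and its second form, ATTGG and CCACG with 1 base between them, were in none of the 49 windows, against 0.0806% and 0.0549% of all windows. Their shared part CCACG, which TGACGTGG also contains on the other strand, stood in 81.6% of the 49 and 37.9% of all. TGACG, the other end of the core, stood in 49% and 25%. The ETS core CCGGAAGT was found in 10 windows, or 20.4%, against 4.44% of all, and the E-box CACGTG in 7, or 14.3%, against 7.43%. AGAACA, a part of the androgen response element, was in 4 windows, or 8.16%, against 14.9% of all, and the CArG box that SRF binds was in none, against 1.29%. The cyclic AMP response element TGACGTCA was also in none, against 1.98% of all windows. A match describes the letters in these windows only.

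The targeting step comes first. SRP54, SRP9 and SRP19 are proteins of the signal recognition particle, and SRPRB anchors its receptor in the ER membrane. SRP19, which helps to assemble the particle's RNA, rose by 1.30 ± 0.08 under control siRNA and by 0.73 ± 0.08 under SRF siRNA, a difference of -0.57 ± 0.11 (adjusted p = 0.00321). SRP54, the subunit that holds the signal peptide, rose by 0.66 ± 0.07 and by 0.21 ± 0.07. For SRP54 the difference was -0.45 ± 0.11, and the rise under SRF siRNA did not pass without SRF siRNA R1881 replicate 1 or 3 or SRF siRNA vehicle replicate 2 or 3 (0.16 to 0.21). SRPRB rose by 0.58 ± 0.08 under control siRNA and had 0.20 ± 0.08 under SRF siRNA, which did not pass. Its difference of -0.38 ± 0.12 passed, but not without control siRNA R1881 replicate 2 or 3, control siRNA vehicle replicate 1 or 2, SRF siRNA R1881 replicate 1 or 3 or SRF siRNA vehicle replicate 1 or 2 (-0.39 to -0.32). SRP9, which acts in holding back elongation, went the other way. It read 13.06, 13.25 and 13.25 with vehicle and 12.98, 13.02 and 12.91 with R1881 under control siRNA, and 13.24, 13.35 and 13.26 with vehicle and 13.10, 13.06 and 13.01 with R1881 under SRF siRNA. All vehicle arrays were above the R1881 arrays under each siRNA. SRP9 fell by 0.22 ± 0.07 under both siRNAs (adjusted p = 0.0217 and 0.022), and the difference between the siRNAs was -0.01 ± 0.10 (95% interval -0.23 to 0.22). The SRP9 call under control siRNA was lost without control siRNA R1881 replicate 3 or control siRNA vehicle replicate 2 or 3 (-0.19 to -0.18), and that under SRF siRNA without SRF siRNA R1881 replicate 2 or 3 or SRF siRNA vehicle replicate 2 (-0.22 to -0.19).

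The 5 translocon genes all rose under control siRNA, 3 of them also under SRF siRNA, and all 5 responded less under SRF siRNA. TRAM1, a membrane protein beside the channel that helps nascent chains enter it, had the largest change of the 5. It read 10.73, 10.71 and 10.62 with vehicle and 11.86, 11.93 and 11.88 with R1881 under control siRNA, and 10.99, 10.82 and 10.70 with vehicle and 11.38, 11.45 and 11.45 with R1881 under SRF siRNA. The R1881 arrays were above the vehicle arrays under each siRNA, and under R1881 the SRF siRNA arrays were all lower than the control siRNA arrays. TRAM1 rose by 1.20 ± 0.08 (2.30-fold) and by 0.59 ± 0.08, a difference of -0.61 ± 0.11 (adjusted p = 0.00207). SEC61A1, the pore itself, rose by 0.74 ± 0.07 and 0.26 ± 0.07. Its other probe set gave 0.35 and -0.12, neither of which passed, and the mean of both did not pass under SRF siRNA (0.07). SEC61B, a small channel subunit, rose by 0.85 ± 0.07 and 0.26 ± 0.07. SEC62 and SEC63 serve post-translational entry through the channel. Under control siRNA they rose by 0.24 ± 0.07 and 0.53 ± 0.08, and under SRF siRNA they had -0.14 ± 0.07 and 0.01 ± 0.08, which did not pass. The difference of -0.38 ± 0.10 for SEC62 was lost without control siRNA R1881 replicate 1 (-0.36), and none of its 4 further probe sets passed for the rise.

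The 4 subunits of the translocon-associated protein complex, SSR1 to SSR4, which binds beside the channel and aids the entry of certain signal peptides, rose under control siRNA. SSR2, one of them, had the second largest difference between siRNAs of the 54 genes. It read 10.34, 10.43 and 10.35 with vehicle and 11.35, 11.38 and 11.39 with R1881 under control siRNA, and 10.78, 10.65 and 10.72 with vehicle and 10.71, 10.67 and 10.78 with R1881 under SRF siRNA. Under control siRNA every R1881 array was above every vehicle array, and under SRF siRNA the arrays overlapped, at a level between those of the control groups. SSR2 rose by 1.00 ± 0.06 (2.00-fold, adjusted p = 6.35e-08) under control siRNA. Under SRF siRNA the change was 0.00 ± 0.06 (95% interval -0.14 to 0.14), and the difference was -1.0 ± 0.09 (adjusted p = 1.51e-05). SSR2 has 1 probe set that passed the filter.

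SSR3 had the larger rise. It read 10.61, 10.58 and 10.78 with vehicle and 12.32, 12.17 and 12.24 with R1881 under control siRNA, and 10.59, 10.30 and 10.37 with vehicle and 11.10, 11.24 and 10.97 with R1881 under SRF siRNA. The vehicle groups overlapped, while the R1881 arrays under SRF siRNA lay between vehicle and R1881 under control siRNA. SSR3 rose by 1.59 ± 0.10 (3.00-fold) and by 0.68 ± 0.10, a difference of -0.90 ± 0.14 (adjusted p = 0.000616). Its 3 further probe sets changed under control siRNA by 1.46, 0.94 and 1.84, of which the second did not pass (adjusted p = 0.0951), and gave 0.09, -0.64 and 0.99 under SRF siRNA, of which only the last passed. The mean of all SSR3 probe sets rose by 0.28 under SRF siRNA and did not pass the test, so the remaining response of SSR3 depends on the probe set. SSR1 rose by 0.87 ± 0.07 and 0.43 ± 0.07, and SSR4 rose by 0.49 ± 0.08 under control siRNA and had 0.14 ± 0.08 under SRF siRNA.

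Signal peptidase had members that went in opposite directions. It cuts off the signal peptide and holds 1 of the alternative catalytic subunits SEC11A and SEC11C beside SPCS1, SPCS2 and SPCS3. SEC11C read 10.63, 10.46 and 10.57 with vehicle and 12.28, 12.14 and 12.20 with R1881 under control siRNA, and 9.75, 9.68 and 9.92 with vehicle and 11.41, 11.31 and 11.35 with R1881 under SRF siRNA. R1881 arrays were higher under each siRNA, and the SRF siRNA arrays were lower than the control siRNA arrays in both treatments. SEC11C rose by 1.65 ± 0.08 (3.14-fold, adjusted p = 5.29e-09) and by 1.58 ± 0.08, and the difference was -0.07 ± 0.11 (95% interval -0.32 to 0.17). Its dimmer probe set gave 2.02 and 1.36 for the same rises, and the mean of both a difference of -0.37 (adjusted p = 0.011).

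SEC11A read 11.62, 11.62 and 11.67 with vehicle and 11.22, 11.30 and 11.21 with R1881 under control siRNA, and 12.21, 11.94 and 11.98 with vehicle and 11.65, 11.62 and 11.67 with R1881 under SRF siRNA. R1881 arrays were the lower ones under each siRNA, and the SRF siRNA arrays the higher ones in each treatment. SEC11A fell by 0.39 ± 0.08 with R1881 under control siRNA (adjusted p = 0.000757) and by 0.40 ± 0.08 under SRF siRNA (adjusted p = 0.000874).

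SPCS3, a subunit required for cleavage, read 10.10, 10.02 and 9.92 with vehicle and 11.54, 11.59 and 11.53 with R1881 under control siRNA, and 10.03, 9.75 and 9.95 with vehicle and 11.47, 11.65 and 11.83 with R1881 under SRF siRNA. Its R1881 arrays were all above its vehicle arrays, and the 2 siRNAs overlapped in each treatment. SPCS3 rose by 1.54 ± 0.10 (2.91-fold) and by 1.74 ± 0.10 (3.35-fold), with a difference of 0.20 ± 0.14 (95% interval -0.10 to 0.51, adjusted p = 0.333). SPCS2 rose by 0.44 ± 0.08 under control siRNA and had -0.07 ± 0.08 under SRF siRNA, a difference of -0.51 ± 0.11.

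SPCS1, an accessory subunit, read 12.34, 12.42 and 12.33 with vehicle and 12.39, 12.34 and 12.37 with R1881 under control siRNA, and 12.39, 12.35 and 12.38 with vehicle and 12.19, 12.16 and 12.18 with R1881 under SRF siRNA. Only the R1881 arrays under SRF siRNA were lower than the other 3 groups. SPCS1 had 0.00 ± 0.06 under control siRNA and fell by 0.20 ± 0.06 under SRF siRNA (adjusted p = 0.0128), and the difference of -0.20 ± 0.08 did not pass (adjusted p = 0.102).

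All 7 genes of oligosaccharyltransferase, the enzyme that moves the glycan onto asparagine, rose under control siRNA, and all 7 responded less under SRF siRNA. OSTC, a subunit of the form that works at the channel, read 10.60, 10.51 and 10.67 with vehicle and 11.67, 11.74 and 11.68 with R1881 under control siRNA, and 10.14, 10.21 and 10.09 with vehicle and 10.41, 10.57 and 10.39 with R1881 under SRF siRNA. The SRF siRNA arrays were below the control siRNA arrays in each treatment, and under SRF siRNA even the R1881 arrays overlapped with the vehicle arrays of control siRNA. OSTC rose by 1.11 ± 0.07 (2.15-fold) and by 0.31 ± 0.07, a difference of -0.79 ± 0.10 (adjusted p = 0.000211).

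STT3A, the catalytic subunit that glycosylates chains as they enter, read 9.58, 9.81 and 9.57 with vehicle and 10.68, 10.62 and 10.69 with R1881 under control siRNA, and 9.93, 9.92 and 9.85 with vehicle and 10.19, 10.16 and 10.03 with R1881 under SRF siRNA. Its R1881 arrays were higher under each siRNA, by less under SRF siRNA. STT3A rose by 1.01 ± 0.08 and by 0.23 ± 0.08, a difference of -0.78 ± 0.11 (adjusted p = 0.00045). The smaller rise was lost without SRF siRNA R1881 replicate 1 or 2 or SRF siRNA vehicle replicate 2 or 3 (0.19 to 0.24).

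STT3B, the catalytic subunit that can act after translation, read 10.52, 10.50 and 10.34 with vehicle and 10.74, 10.84 and 10.87 with R1881 under control siRNA, and 10.35, 10.24 and 10.38 with vehicle and 10.22, 10.19 and 10.39 with R1881 under SRF siRNA. Under SRF siRNA its treatments overlapped. STT3B rose by 0.37 ± 0.08 under control siRNA and had -0.05 ± 0.08 under SRF siRNA.

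RPN1, a scaffold subunit, read 10.27, 10.43 and 10.52 with vehicle and 11.44, 11.37 and 11.47 with R1881 under control siRNA, and 10.78, 10.70 and 10.62 with vehicle and 11.03, 11.17 and 10.96 with R1881 under SRF siRNA. The R1881 arrays of RPN1 were higher under each siRNA. RPN1 rose by 1.02 ± 0.08 and by 0.36 ± 0.08, a difference of -0.66 ± 0.12 (adjusted p = 0.00184). DAD1 rose by 0.74 ± 0.07 and 0.38 ± 0.07, and RPN2 by 0.46 ± 0.08 under control siRNA with 0.10 ± 0.08 under SRF siRNA. The difference of -0.36 ± 0.11 for RPN2 was lost without control siRNA R1881 replicate 1 or 2, control siRNA vehicle replicate 1 or 2, SRF siRNA R1881 replicate 3 or SRF siRNA vehicle replicate 1 (-0.35 to -0.31).

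DDOST, a subunit of the core complex, read 11.13, 11.12 and 11.12 with vehicle and 11.45, 11.38 and 11.27 with R1881 under control siRNA, and 11.50, 11.55 and 11.36 with vehicle and 11.08, 11.23 and 11.06 with R1881 under SRF siRNA. R1881 arrays were above vehicle arrays under control siRNA and below them under SRF siRNA. DDOST rose by 0.24 ± 0.08 (adjusted p = 0.0167) in the one and fell by 0.35 ± 0.08 (adjusted p = 0.00248) in the other, and the difference of -0.59 ± 0.11 passed (adjusted p = 0.00229). Its rise under control siRNA did not pass after quantile normalization (0.15), with the GAPDH covariate (0.35) or without control siRNA R1881 replicate 1 (0.20). The other DDOST probe set rose by 0.49 under control siRNA and had -0.10 under SRF siRNA, which did not pass. The mean of both fell by 0.22 under SRF siRNA and passed, so the size of the fall depends on the probe set.

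In the COPII coat 8 of 11 genes rose under control siRNA, 9 rose under SRF siRNA and 5 had the smaller response under SRF siRNA. SEC24D, 1 of 4 cargo-binding SEC24 paralogs, changed most within the coat. It read 6.49, 5.88 and 5.84 with vehicle and 8.22, 8.42 and 8.62 with R1881 under control siRNA, and 5.84, 5.77 and 5.46 with vehicle and 6.39, 6.59 and 6.44 with R1881 under SRF siRNA. Vehicle arrays overlapped between siRNAs. The R1881 arrays under SRF siRNA were above their own vehicle arrays but not above every vehicle array of control siRNA, and the R1881 arrays of control siRNA stood far above all others. SEC24D rose by 2.35 ± 0.17 (5.09-fold, adjusted p = 1.63e-07) and by 0.78 ± 0.17 (1.72-fold), and the difference of -1.57 ± 0.24 was the largest of the 54 genes (adjusted p = 0.000595). SEC24D has 1 probe set that passed the filter.

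SEC24B read 9.58, 9.42 and 9.34 with vehicle and 10.99, 11.03 and 10.90 with R1881 under control siRNA, and 9.33, 9.28 and 9.42 with vehicle and 9.88, 9.95 and 10.09 with R1881 under SRF siRNA. Its R1881 arrays were higher under each siRNA, and those of SRF siRNA were lower than those of control siRNA. SEC24B rose by 1.53 ± 0.08 (2.88-fold) and by 0.63 ± 0.08, a difference of -0.90 ± 0.12 (adjusted p = 0.000234).

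SEC24A read 8.59, 8.51 and 8.74 with vehicle and 9.19, 9.32 and 9.32 with R1881 under control siRNA, and 8.52, 8.55 and 8.57 with vehicle and 9.03, 9.12 and 9.19 with R1881 under SRF siRNA. R1881 raised SEC24A by 0.66 ± 0.08 and 0.56 ± 0.08, with a difference of -0.10 ± 0.11 (95% interval -0.34 to 0.14). Its dimmer probe sets gave differences of -0.38, which did not pass, and -1.32 (adjusted p = 0.0134), the last from rises of 2.14 and 0.82. The mean of the 3 probe sets rose by 1.23 under control siRNA and its difference of -0.60 passed, so whether SEC24A responds less under SRF siRNA depends on the probe set.

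SEC24C read 9.56, 9.68 and 9.63 with vehicle and 10.70, 10.73 and 10.59 with R1881 under control siRNA, and 9.94, 10.06 and 9.82 with vehicle and 10.54, 10.53 and 10.67 with R1881 under SRF siRNA. It rose by 1.05 ± 0.08 and 0.64 ± 0.08, and its difference of -0.41 ± 0.11 was lost with the GAPDH covariate (-0.36) and without control siRNA R1881 replicate 2 or SRF siRNA vehicle replicate 2 (-0.38 to -0.35).

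The inner coat pair behaved differently. SEC23A read 9.22, 9.09 and 9.23 with vehicle and 9.0, 9.09 and 9.16 with R1881 under control siRNA, and 11.05, 11.13 and 11.12 with vehicle and 11.26, 11.28 and 11.13 with R1881 under SRF siRNA. Its treatments overlapped under each siRNA, and all SRF siRNA arrays were far above all control siRNA arrays. With R1881 SEC23A had -0.09 ± 0.07 and 0.12 ± 0.07, neither of which passed. SEC23B read 10.45, 10.35 and 10.59 with vehicle and 11.19, 11.31 and 11.16 with R1881 under control siRNA, and 10.42, 10.35 and 10.51 with vehicle and 10.70, 10.66 and 10.72 with R1881 under SRF siRNA. Its R1881 arrays were higher under each siRNA. SEC23B rose by 0.76 ± 0.08 and by 0.26 ± 0.08, a difference of -0.49 ± 0.11, and the smaller rise was lost without SRF siRNA vehicle replicate 2 (0.22). Its dimmer probe sets gave 0.14 under SRF siRNA, which did not pass, and 0.34, which did.

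SAR1A and SAR1B are the GTPases that start COPII assembly. SAR1B read 9.77, 9.65 and 9.77 with vehicle and 10.84, 10.92 and 11.09 with R1881 under control siRNA, and 11.26, 11.33 and 11.25 with vehicle and 12.12, 12.21 and 12.21 with R1881 under SRF siRNA. Each of the 4 groups stood clear of the others, with R1881 and SRF siRNA each adding to the level. SAR1B rose with R1881 by 1.22 ± 0.08 and 0.90 ± 0.08, and the difference of -0.32 ± 0.11 missed the threshold (adjusted p = 0.0514), which 5 of the alternative fits passed. SAR1A read 10.04, 10.04 and 10.05 with vehicle and 10.17, 10.35 and 10.22 with R1881 under control siRNA, and 9.63, 9.79 and 9.60 with vehicle and 9.91, 9.92 and 10.20 with R1881 under SRF siRNA. SAR1A had 0.20 ± 0.09 under control siRNA, which did not pass (adjusted p = 0.0673), and rose by 0.33 ± 0.09 under SRF siRNA. Both of its dimmer probe sets passed under control siRNA (0.60 and 0.66), as did the mean of all 3 (0.49), and under SRF siRNA they gave 0.61, which passed, and 0.01.

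SEC13, an outer coat subunit that is also part of the nuclear pore, read 10.03, 10.14 and 10.27 with vehicle and 11.10, 11.00 and 11.09 with R1881 under control siRNA, and 10.51, 10.30 and 10.29 with vehicle and 10.53, 10.64 and 10.67 with R1881 under SRF siRNA. Its R1881 arrays were higher under each siRNA, narrowly so under SRF siRNA. SEC13 rose by 0.92 ± 0.09 and by 0.25 ± 0.09, a difference of -0.67 ± 0.12 (adjusted p = 0.00187). The smaller rise was lost without SRF siRNA R1881 replicate 2 or 3 or SRF siRNA vehicle replicate 2 or 3 (0.21 to 0.23). SEC16A, the scaffold of ER exit sites, rose by 0.84 ± 0.10 and 0.43 ± 0.10. SEC31A, the other outer coat subunit, had 0.21 ± 0.10 and -0.01 ± 0.10, neither of which passed.

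All 7 cargo receptors rose under control siRNA, 4 of them also under SRF siRNA, and 6 had the smaller response under SRF siRNA. The p24 proteins TMED2, TMED3, TMED9 and TMED10 cycle in both coats, and TMED9 and TMED10 rose most. TMED9 rose by 1.33 ± 0.08 and 0.75 ± 0.08, a difference of -0.57 ± 0.11 (adjusted p = 0.00279), and TMED10 by 1.03 ± 0.07 and 0.65 ± 0.07, a difference of -0.38 ± 0.10. The mean of the TMED10 probe sets rose by 0.38 under SRF siRNA, and its difference of -0.35 did not pass. TMED2 and TMED3 rose by 0.63 ± 0.08 and 0.61 ± 0.07 under control siRNA and had 0.14 ± 0.08 and 0.13 ± 0.07 under SRF siRNA. LMAN1, the lectin that with MCFD2 exports clotting factors, rose by 1.01 ± 0.08 and 0.51 ± 0.08. Its dimmer probe sets gave 0.27 and 0.11 under SRF siRNA, and neither they nor the mean of all LMAN1 probe sets (0.30) passed there, while the difference went from -0.50 to -0.84 with that mean. MCFD2 itself rose by 0.82 ± 0.11 and 0.38 ± 0.11, the smaller rise being lost without SRF siRNA R1881 replicate 3 or SRF siRNA vehicle replicate 1 (0.32). The MCFD2 difference of -0.44 ± 0.16 did not pass (adjusted p = 0.0713), but that of its other probe set did (-0.86, adjusted p = 0.00111), as did the mean of both (-0.65). LMAN2, a related lectin, rose by 0.55 ± 0.08 under control siRNA and had 0.13 ± 0.08 under SRF siRNA.

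All 9 genes of the COPI group rose under control siRNA, 3 of them under SRF siRNA, and 6 had the smaller response there. COPG1, the gamma subunit that binds p24 tails, read 9.76, 9.76 and 9.81 with vehicle and 11.06, 10.99 and 11.12 with R1881 under control siRNA, and 9.35, 9.24 and 9.13 with vehicle and 9.77, 10.12 and 10.01 with R1881 under SRF siRNA. Its R1881 arrays were higher under each siRNA, and the SRF siRNA arrays lower in each treatment. COPG1 rose by 1.29 ± 0.09 (2.44-fold) and by 0.73 ± 0.09, and its difference of -0.56 ± 0.13 (adjusted p = 0.00924) did not pass with the GAPDH covariate (-0.48, adjusted p = 0.0609).

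COPG2, its paralog, read 6.61, 6.52 and 6.19 with vehicle and 6.83, 6.74 and 7.07 with R1881 under control siRNA, and 6.18, 6.27 and 6.24 with vehicle and 6.31, 6.50 and 6.45 with R1881 under SRF siRNA. COPG2 rose by 0.44 ± 0.11 under control siRNA and had 0.19 ± 0.11 under SRF siRNA.

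ARF4, a small GTPase of the family that recruits COPI, read 11.52, 11.38 and 11.53 with vehicle and 12.46, 12.48 and 12.51 with R1881 under control siRNA, and 12.56, 12.58 and 12.58 with vehicle and 12.80, 12.82 and 12.93 with R1881 under SRF siRNA. Only the vehicle arrays of control siRNA were low. ARF4 rose with R1881 by 1.01 ± 0.07 (2.01-fold) and by 0.28 ± 0.07, a difference of -0.73 ± 0.09 (adjusted p = 0.000192). Its other probe set had 0.19 under SRF siRNA, which did not pass, while the mean of both (0.23) passed.

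COPZ1, the zeta subunit, read 8.72, 8.67 and 8.64 with vehicle and 9.43, 9.36 and 9.51 with R1881 under control siRNA, and 9.90, 10.01 and 10.15 with vehicle and 10.17, 10.31 and 10.35 with R1881 under SRF siRNA. Each group stood clear of the others, in the order control vehicle, control R1881, SRF siRNA vehicle and SRF siRNA R1881. COPZ1 rose with R1881 by 0.75 ± 0.08 and by 0.26 ± 0.08, a difference of -0.50 ± 0.11, and its rise under SRF siRNA was lost without SRF siRNA R1881 replicate 2 or 3 or SRF siRNA vehicle replicate 1 (0.20 to 0.24). The other COPZ1 probe set had 0.11 under SRF siRNA, which did not pass.

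COPE, the epsilon subunit, read 11.32, 11.41 and 11.27 with vehicle and 11.78, 11.83 and 11.80 with R1881 under control siRNA, and 10.87, 10.92 and 10.62 with vehicle and 11.01, 11.04 and 10.89 with R1881 under SRF siRNA. Its SRF siRNA arrays were lower in each treatment, and under SRF siRNA the treatments overlapped. COPE rose by 0.47 ± 0.09 under control siRNA and had 0.18 ± 0.09 under SRF siRNA, and the difference of -0.30 ± 0.12 did not pass (adjusted p = 0.104). The other coatomer subunits COPA, COPB1, COPB2 and ARCN1 rose by 0.41 to 0.56 under control siRNA and had -0.01 to 0.22 under SRF siRNA, where none passed. With the mean of all passing probe sets the COPA difference went from -0.41 to -0.56 and no longer passed, and that of COPB1 went from -0.29 to -0.39 and passed. For COPB2 the difference of -0.45 ± 0.12 was lost without control siRNA R1881 replicate 3 (-0.42).

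The KDEL receptors gave the largest and one of the smallest rises of the 54 genes. KDELR3 read 4.25, 4.08 and 4.53 with vehicle and 7.27, 7.10 and 6.88 with R1881 under control siRNA, and 5.33, 4.64 and 5.42 with vehicle and 7.29, 7.34 and 7.54 with R1881 under SRF siRNA. R1881 arrays were far above vehicle arrays under each siRNA, and the vehicle arrays of SRF siRNA were above those of control siRNA. KDELR3 rose by 2.80 ± 0.19 (6.95-fold, adjusted p = 1.01e-07) and by 2.26 ± 0.19 (4.78-fold), and its dimmer probe set rose by 2.05 and 1.62. The difference of -0.54 ± 0.27 did not pass (95% interval -1.13 to 0.05, adjusted p = 0.173), but it passed without SRF siRNA vehicle replicate 2 (-0.79) and for the mean of both probe sets (-0.48). Its vehicle values lie near the filter, where a fold change depends on the background estimate.

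KDELR1 read 10.94, 11.03 and 10.91 with vehicle and 11.18, 11.21 and 11.06 with R1881 under control siRNA, and 10.68, 10.75 and 10.60 with vehicle and 10.88, 10.88 and 10.97 with R1881 under SRF siRNA. KDELR1 rose by 0.19 ± 0.07 (adjusted p = 0.0359) and by 0.24 ± 0.07 (adjusted p = 0.0152), and the difference was 0.05 ± 0.10 (95% interval -0.18 to 0.27). Its other probe set gave -0.04 and 0.10, neither of which passed, and with the mean of both neither rise passed (0.07 and 0.17). The first call was also lost without control siRNA R1881 replicate 1 or 2 or control siRNA vehicle replicate 1 or 3 (0.16 to 0.18), and the second without SRF siRNA R1881 replicate 3 or SRF siRNA vehicle replicate 3 (0.20).

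**Figure D3:**
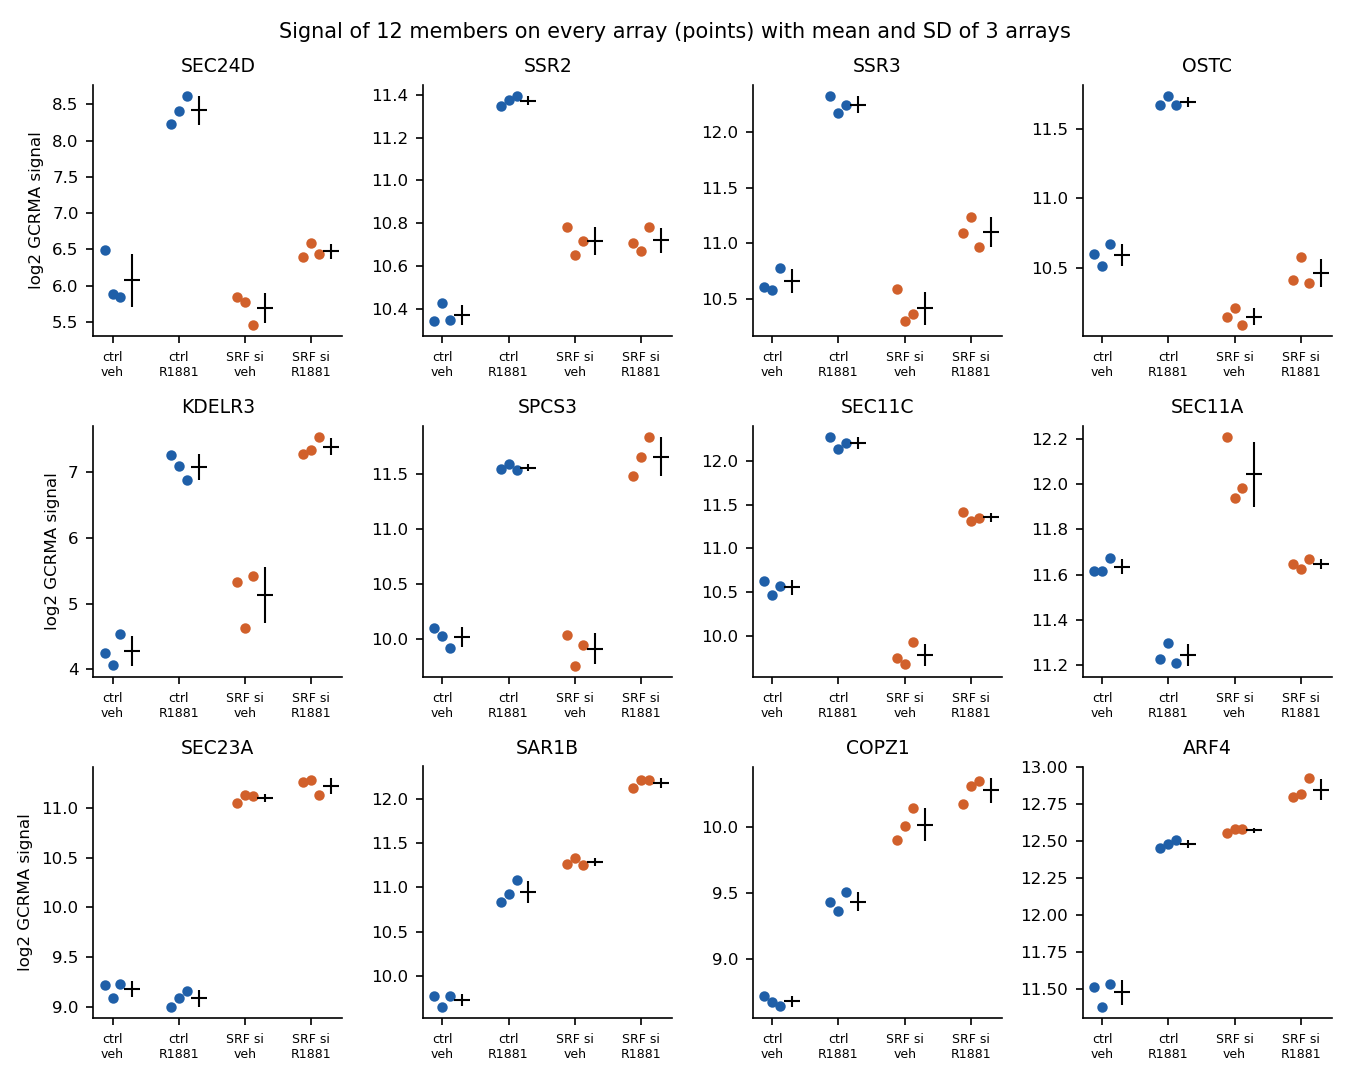
Log2 GCRMA signal of 12 genes on each of the 12 arrays (points), with the mean and SD of 3 arrays beside them, for control siRNA (blue) and SRF siRNA (orange) in vehicle and R1881; each panel has its own vertical axis. SEC24D is high only in control siRNA with R1881, SSR2 does not respond under SRF siRNA, SEC11C and SPCS3 respond under both, SEC11A goes down, and SEC23A is high in both SRF siRNA groups.

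Paralogous subunits differed in their R1881 response. The within-array difference of 2 paralogs was compared between treatments, and its change with R1881 was averaged over both siRNAs. This average was tested for 8 pairs by an exact two-sided permutation of treatment labels within each siRNA. The smallest p that the 400 arrangements allow is 0.005. No pair was tested under a single siRNA. All 8 pairs passed after adjustment over the pairs, with adjusted p from 0.01 to 0.015. The pairs were formed by gene family, and the probe sets of a pair are not compared in level.

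The change of SEC11A minus that of SEC11C was -2.04 under control siRNA and -1.98 under SRF siRNA, and that of KDELR1 minus KDELR3 was -2.61 and -2.02. Within COPII, the change of SEC24C minus that of SEC24D was -1.30 under control siRNA and -0.14 under SRF siRNA. For SEC23A minus SEC23B the values were -0.85 and -0.14, and for SEC24A minus SEC24B they were -0.86 and -0.07. SAR1A minus SAR1B gave -1.02 and -0.56. COPG1 exceeded COPG2 by 0.85 and 0.54, and STT3A exceeded STT3B by 0.64 and 0.28. Other probe sets give other sizes, and the dimmest of SEC24A rose by 2.14 under control siRNA, more than SEC24B. The 3 SEC23 and SEC24 pairs were thus near 0 under SRF siRNA, a change between siRNAs that was not tested for the pairs.

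**Figure D4:**
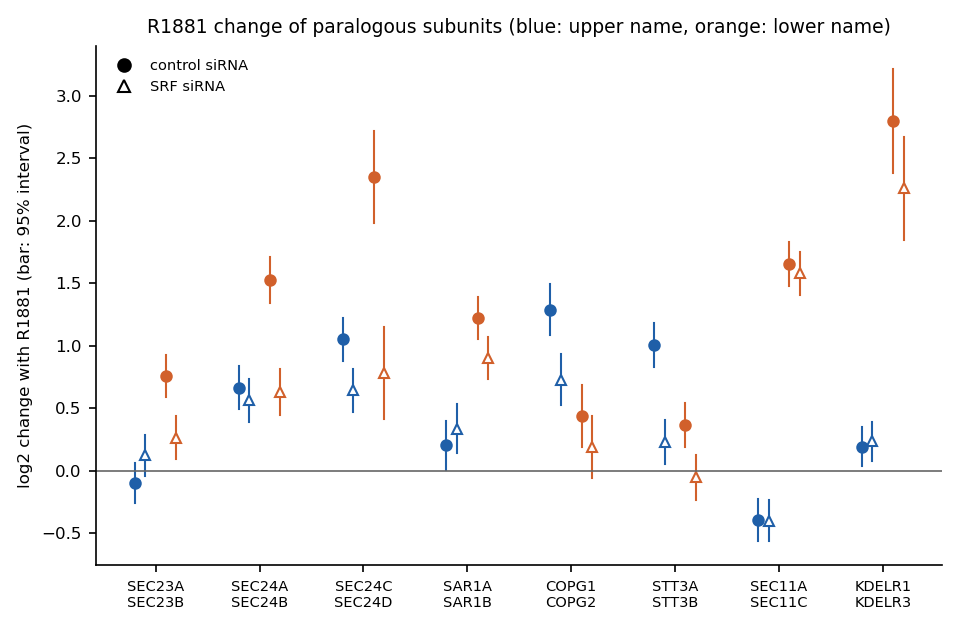
Log2 change with R1881 (vertical axis) for the 8 pairs of paralogs, the upper name in blue and the lower name in orange, under control siRNA (filled circles) and SRF siRNA (open triangles), with 95% intervals. SEC11C and KDELR3 lie far above their paralogs under both siRNAs, while SEC24D and SEC24B lie well above theirs under control siRNA and close to them under SRF siRNA.

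SRF siRNA itself was compared with control siRNA in each treatment. These comparisons use the same arrays as those above, so the values below are another view of the same data and no separate support. In vehicle 16 of the 54 genes were higher under SRF siRNA, against 30.7% of all genes tested, and 13 were lower, against 25%, with a median of 0.02 (0.04 for all genes tested). In R1881 5 were higher, against 33.6%, and 39 were lower, against 25.4%, with a median of -0.42 (0.06 for all genes tested). Of the 39 genes, 20 had not passed in vehicle, 13 were lower in vehicle too, and 6 had been higher there, DDOST, RPN1, SEC13, SPCS2, SSR2 and STT3A. Such joint counts over both treatments were not made for all genes tested. With the GAPDH covariate the 16 genes higher in vehicle became 8, while 39 stayed the number lower in R1881.

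Higher under SRF siRNA in both treatments were SEC23A, SAR1B, COPZ1, ARF4 and SEC11A. SEC23A was 3.79-fold higher in vehicle (1.92 ± 0.07, adjusted p = 3.36e-09) and 4.40-fold higher in R1881 (2.14 ± 0.07, adjusted p = 1.05e-09), with 1.89 and 2.03 on its other probe set. SAR1B was higher by 1.55 ± 0.08 and 1.23 ± 0.08, and its 5 probe sets gave 1.38 to 1.63 in vehicle and 1.15 to 1.31 in R1881. COPZ1 was higher by 1.34 ± 0.08 and 0.85 ± 0.08. ARF4 was higher by 1.10 ± 0.07 and 0.37 ± 0.07, of which the second was not seen on its other probe set (0.06). SEC11A was higher by 0.41 ± 0.08 and 0.40 ± 0.08. KDELR3 was higher in vehicle by 0.85 ± 0.19 and had 0.31 ± 0.19 in R1881, which did not pass.

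The 13 genes lower under SRF siRNA in both treatments were ARCN1, COPE, COPG1, DAD1, KDELR1, OSTC, RPN2, SAR1A, SEC11C, SEC62, SSR4, TMED9 and TMED10. Calls that leaving out 1 array could end were those of DAD1, SEC13, SEC31A, STT3A and TMED10 in vehicle and of DDOST, KDELR1, SAR1A and SPCS2 in R1881. The largest in vehicle was SEC11C, which was lower by 0.77 ± 0.08, followed by COPE and COPG1 with -0.53 and -0.53. The other SEC11C probe set had 0.14 in vehicle, which did not pass, and the mean of both was -0.32, so this order depends on the probe set. The mean of all passing probe sets also ended the vehicle calls of SAR1A, SEC31A, SPCS2, SSR1 and TMED10 and the R1881 call of COPA. It gave R1881 calls for SEC24A, SRPRB and SSR1 as lower (-0.68, -0.27 and -0.52), against -0.17, -0.06 and -0.06, which did not pass. In R1881 the largest were SEC24D with -1.95 ± 0.17 (3.85-fold lower), OSTC with -1.24 ± 0.07 (2.36-fold lower), SSR3 with -1.14 ± 0.10, COPG1 with -1.09 ± 0.09 and SEC24B with -1.0 ± 0.08. SEC62 had -0.40 in vehicle on its brightest probe set and 0.69 on another, both past the threshold, so its direction depends on the probe set, and the mean of its probe sets gave 0.05.

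By role, all 5 translocon, all 7 oligosaccharyltransferase and all 7 cargo receptor genes were lower under SRF siRNA in R1881. In the COPII coat 5 were lower and 2 higher, and in the COPI group 6 were lower and 2 higher. Of the 4 signal recognition genes 2 were lower, of the 4 translocon-associated subunits 3, of the 5 signal peptidase genes 3 with 1 higher, and of the KDEL receptors 1.

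**Figure D5:**
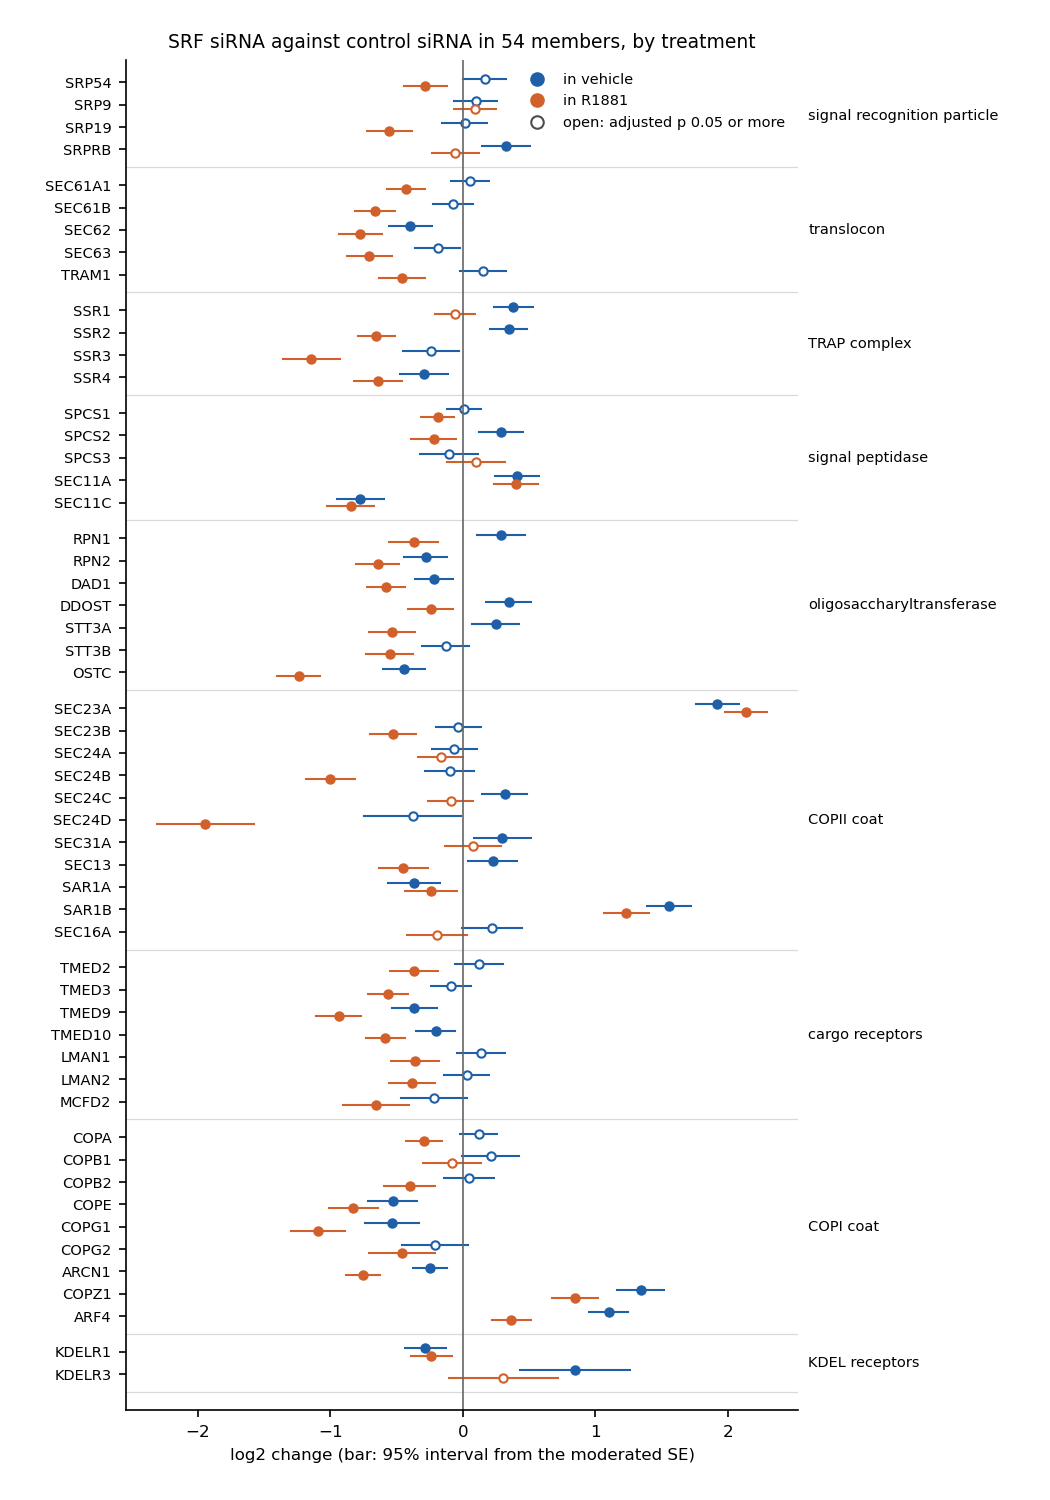
Log2 change with SRF siRNA against control siRNA for each of the 54 genes (horizontal axis), grouped by role, in vehicle (blue) and R1881 (orange), with 95% intervals and open points for an adjusted p of 0.05 or more. Blue points scatter around 0, most orange points lie left of 0, and SEC23A, SAR1B and COPZ1 lie right of 0 in both.

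The genes around this machinery were counted from lists of the same pathway. The shares of all genes tested to read them against are 26.9% that rose and 33.8% that fell with R1881 under control siRNA, 25.5% that rose under SRF siRNA and 10.5% with the smaller response there. Of 14 other translocation and glycosyl transfer genes 9 rose (64.3%) and 1 fell with R1881 under control siRNA, and 4 had the smaller response under SRF siRNA (28.6%). Their median change was 0.28. TUSC3, an oxidoreductase subunit of oligosaccharyltransferase, rose by 1.09 ± 0.08. SRPRA, the other subunit of the signal recognition particle receptor, and MAGT1, the counterpart of TUSC3, were lower under SRF siRNA by 1.58 ± 0.08 and 1.48 ± 0.08 in vehicle, more than any of the 54 genes. Most of this list did not fall there. Of its 14 genes 7 were higher with SRF siRNA in vehicle (50%, against 30.7% of all genes tested) and 3 lower (21.4%, against 25%).

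Of 23 genes that build the dolichol-linked glycan 15 rose (65.2%, against 26.9% of all genes tested) and 1 fell (against 33.8%) under control siRNA, with a median change of 0.39. Of the same 23, 13 rose under SRF siRNA (56.5%, against 25.5%) and 6 had the smaller response there (26.1%, against 10.5%). GMPPA, a regulatory subunit in GDP-mannose synthesis, rose by 1.90 ± 0.15, and DPM3, a subunit of dolichol-phosphate-mannose synthase, by 1.12 ± 0.12. Of 26 ER exit adaptors, tethers and SNAREs 19 rose (73.1%) and 2 fell with a median of 0.50, 12 rose under SRF siRNA (46.2%) and 7 had the smaller response (26.9%). ERGIC2 and SURF4, which cycle between the ER and the Golgi, rose by 1.14 ± 0.09 and 1.07 ± 0.07. BET1, a SNARE of ER to Golgi transport, was lower under SRF siRNA by 2.23 ± 0.12 in vehicle.

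Further lists covered neighbouring steps. Of 18 other COPI and ARF genes 10 rose (55.6%, against 26.9% of all genes tested) and 2 fell (11.1%, against 33.8%) under control siRNA, with a median of 0.30. The smaller response under SRF siRNA was found for 2 of the 18 (11.1%), near the 10.5% of all genes tested. Of 16 genes of tail-anchor and EMC insertion, other routes into the ER membrane, 6 rose (37.5%) and 3 fell (18.8%), with a median of -0.04. In this list 1 of the 16 had the smaller response under SRF siRNA (6.25%, against 10.5%). Of 13 genes that trim N-glycans after transfer 3 rose (23.1%) and 4 fell (30.8%), near the shares of all genes tested, with a median of 0.04. Of the same 13, 0 had the smaller response under SRF siRNA (against 10.5%) and 1 the larger (7.69%, against 13.2%). Among these MAN1A1, a Golgi mannosidase, fell by 4.55 ± 0.20 with R1881 under control siRNA and by 5.33 ± 0.20 under SRF siRNA, and MANEA, an endomannosidase, fell by 3.17 ± 0.09 and fell by 2.54 ± 0.09.

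Of 10 transcription factors and processing enzymes known to act on secretory genes 7 rose under control siRNA (70%, against 26.9% of all genes tested), with a median of 0.84, and 6 under SRF siRNA (60%, against 25.5%). CREB3L4 rose by 2.13 ± 0.09 and by 1.23 ± 0.09, a difference of -0.90 ± 0.13 (limma adjusted p = 0.00034). CREB3L2 rose by 1.92 ± 0.17 and by 0.64 ± 0.17, a difference of -1.29 ± 0.25. Mean CREB3L4 levels were 7.69 in control siRNA with vehicle, 9.82 with R1881, 8.54 in SRF siRNA with vehicle and 9.77 with R1881. Those of CREB3L2 were 4.92, 6.84, 6.58 and 7.22 in the same order, the first being near the filter of 4. For both genes the vehicle level was higher under SRF siRNA, and CREB3L2 was not lower there in R1881. XBP1 rose by 1.23 ± 0.07 and by 1.52 ± 0.07, and its difference of 0.28 ± 0.10 did not pass (adjusted p = 0.061). ATF6, the other factor named above for TGACGTGG, had mean levels of 7.46, 7.54, 7.33 and 7.15 in the same order, without such a rise. Mean levels of ERN1 were 7.70, 9.47, 6.69 and 8.17. Those of CREB3 were 7.31, 8.70, 7.88 and 8.88, and those of DDIT3 6.72, 6.72, 6.38 and 6.49. Of the 10, 0 fell under control siRNA (against 33.8%) and 1 under SRF siRNA (10%, against 27.7%).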

How the data were processed

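The authors deposited log2 signals for every probe set of each array, made with GCRMA per the submitters' processing notes (version not given in the sources used here). GCRMA subtracts an estimated background, so changes of dim probe sets depend on that estimate. All 12 arrays were assigned to groups from the labels. Probe sets with 1 gene symbol and log2 values above 4 on 3 or more arrays were used, and the one with the highest mean stood for its gene. For 10265 genes, 1 mean per group was fitted with limma 3.58.1 in R 4.3.3, and a gene passed at a Benjamini-Hochberg adjusted p under 0.05 over all of them. Errors written as SE are limma's moderated standard errors of log2 changes, from 3 arrays a group. Python 3.11.15 with matplotlib 3.10.9 drew the figures.

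The members and lists were chosen with earlier results of these data known. Values on every array are given, by rule, for 29 genes: the 4 largest passing changes in each direction of each comparison, the 10 largest passing differences of response, SEC24D and the paralogs whose responses differed. All other genes are given by change or range. Some genes beyond the rule were named after their values were seen. Same-numbered arrays did not deviate together (correlations of -0.21 to 0.10), so the numbers were not taken as pairs.

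A check on simulated data used 10265 genes with 50 changed at each size. For R1881 under control siRNA it recovered 10% of changes of 0.25, 64% at 0.5, 96% at 1 and 100% at 2. For the difference of responses it recovered 2%, 42%, 86% and 100%, so small differences were often missed in the simulation. In the data far more genes passed, 6225 for R1881 under control siRNA and 2441 for the difference. The adjustment is then less strict than in the simulation, so these shares do not give the recovery of the tests above. Alternatives changed the filter, a floor, the probe set rule, the normalization, the variance model, the arrays fitted, a replicate block, a GAPDH covariate and the threshold, and left out each array in turn. Scanner files were not used here.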

Additional observations from a re-analysis of the deposited data

Results flagged for a closer look

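The R1881 response differed between the siRNAs, by the test of the difference itself in limma, for 36 of the 54 genes, which was the reason to list them. Values are log2 responses under SRF siRNA minus control siRNA, and all were below 0. In targeting they were -0.45 for SRP54, -0.57 for SRP19 and -0.38 for SRPRB. At the translocon they were -0.49 for SEC61A1, -0.59 for SEC61B, -0.38 for SEC62, -0.52 for SEC63 and -0.61 for TRAM1, with -0.44 for SSR1, -1.0 for SSR2 and -0.9 for SSR3 in the complex beside it. SPCS2 was the signal peptidase subunit with such a difference, -0.51.

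In oligosaccharyltransferase the differences were -0.66 for RPN1, -0.36 for RPN2, -0.36 for DAD1, -0.59 for DDOST, -0.78 for STT3A, -0.42 for STT3B and -0.79 for OSTC. In the COPII coat they were -0.49 for SEC23B, -0.9 for SEC24B, -0.41 for SEC24C, -1.57 for SEC24D and -0.67 for SEC13. Among cargo receptors they were -0.49 for TMED2, -0.47 for TMED3, -0.57 for TMED9, -0.38 for TMED10, -0.5 for LMAN1 and -0.41 for LMAN2. In the COPI group they were -0.41 for COPA, -0.45 for COPB2, -0.56 for COPG1, -0.5 for ARCN1, -0.5 for COPZ1 and -0.73 for ARF4.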

How the results depend on the processing

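Counts are of the 54 genes, and no cause of a shift was tested. With R1881 under control siRNA the median change was 0.65 after quantile normalization and 0.65 with the GAPDH covariate, and the number that fell was 1 with the covariate, 1 at an adjusted p under 0.01 and 1 to 2 when single arrays were left out. Under SRF siRNA the median was 0.22 after quantile normalization, and 2 fell at an adjusted p under 0.01. For the difference of responses the median was -0.40 after quantile normalization and -0.48 to -0.41 without single arrays, and 1 gene, SPCS3, had the larger response under SRF siRNA with the mean of all passing probe sets. With SRF siRNA in vehicle 8 genes were higher with the covariate, and the median ran from -0.024 to 0.061 without single arrays. With SRF siRNA in R1881 the median was -0.49 with the mean of all passing probe sets, -0.35 after quantile normalization and -0.44 to -0.38 without single arrays. SEC62 in vehicle turned from -0.40 to 0.047 with that mean.

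With the replicate number as a block, 48 rose and 2 fell with R1881 under control siRNA, 31 and 4 under SRF siRNA, and 0 and 36 differed in response. The block gave 16 higher and 13 lower with SRF siRNA in vehicle and 5 and 40 in R1881. Same-numbered arrays shared only a number, and 2 of 12 arrays correlated best with their own number. Leaving out each array in turn kept 47 of 50 calls for R1881 under control siRNA, 27 of 35 under SRF siRNA, 31 of 36 for the difference, 24 of 29 for SRF siRNA in vehicle and 40 of 44 in R1881. Of 30 genes with several probe sets, all probe sets passed the same way for 19 of 27 R1881 calls under control siRNA. They did so for 6 of 20 R1881 calls under SRF siRNA and for 4 of 18 differences of response. For SRF siRNA against control siRNA the counts were 10 of 18 in vehicle and 16 of 23 in R1881. Over all genes the calls for R1881 under control siRNA went from 6225 to 3924 with the covariate, and those for the difference from 2441 to 1367 at an adjusted p under 0.01. A fit of the 6 arrays compared gives no value for the difference.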

Other observations

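Single genes of the neighbouring lists also differed between the siRNAs without R1881, in either direction. SRPRA, which docks the signal recognition particle at the ER, had -1.58 ± 0.08 with SRF siRNA in vehicle and -2.15 ± 0.08 in R1881 (log2 change ± SE, limma), and MAGT1 had -1.48 ± 0.08 and -1.80 ± 0.08. BET1 had -2.23 ± 0.12 and -2.45 ± 0.12. Of the ARF GTPases, ARF5 had -1.20 ± 0.10 and -1.09 ± 0.10, while ARF3 had 1.16 ± 0.06 and 1.00 ± 0.06. EMC3, a subunit of the ER membrane insertase, had -0.70 ± 0.09 and -0.69 ± 0.09, and rose with R1881 by 0.75 ± 0.09 under control siRNA and by 0.76 ± 0.09 under SRF siRNA. HSPA5, the chaperone of the ER lumen, rose with R1881 by 0.38 ± 0.06 under control siRNA and had 0.02 ± 0.06 under SRF siRNA, a difference of -0.36 ± 0.09 (adjusted p = 0.0113). Its mean level was 12.39 in control siRNA with vehicle, 12.77 with R1881, 12.81 in SRF siRNA with vehicle and 12.83 with R1881. The vehicle level of HSPA5 under SRF siRNA was thus already near its R1881 levels.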
